A study of Homo sapiens with 18 samples.

Results

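The genes described here are 10 genes of the inflammasome and pyroptosis pathway, chosen by symbol: the sensors NLRP1 and CARD8, the kinase NEK7, the adaptor PYCARD, the inflammatory caspases CASP1 and CASP4, the gasdermins GSDMD and GSDME, and the cytokines IL1B and IL18. All 10 were found by Entrez number among the 18475 genes of the table. They were followed in 3 human lines. BEAS-2B are immortalized bronchial epithelial cells, A549 is a non-small cell lung cancer line and H446 a small cell lung cancer line. Each line was measured by poly(A) RNA-seq without irradiation (control, n = 3 libraries) and 24 h after 10 Gy of X-rays (n = 3 libraries), which gives 18 libraries, and each line is a single cultured line that stands for its tumour or tissue type alone. The sample titles read before for the controls and after for the irradiated libraries, and no time is given for the controls. Irradiation and a difference in culture time can therefore not be told apart. The labels do not say whether the libraries of a group came from separate cultures, so the p-values measure the spread between these libraries, which may be technical. According to the series title, the study compared how radiation acts on bronchial epithelial cells and on lung cancer cells. Values are FPKM, reads per length of transcript, scaled to the reads of each library, so that levels can also be compared between genes.

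An inflammasome is a complex that forms in the cytosol when a sensor meets a danger signal. The sensor recruits caspase-1, most often through the adaptor ASC, the product of PYCARD, and caspase-1 then cleaves pro-IL-1β, pro-IL-18 and gasdermin D, whose freed part opens pores in the plasma membrane. This lytic death is called pyroptosis, and it is regulated largely at the protein level, by cleavage. The mRNA levels given here therefore show which component genes are transcribed, and not how much protein a cell holds or whether the pathway was active.

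Before the members, the libraries were checked against their labels. Relative depth, read from the size of single-read steps in 33 lowly measured genes, differed by at most 1.18-fold between libraries. Of 7 leukocyte markers, PTPRC, LYZ, SPI1 and CSF1R were under 1 FPKM in all 18 libraries, while CD68 was present in every line, CD14 in BEAS-2B, and CD14 and ITGAM at a mean above 1 FPKM in irradiated A549. In H446, the neuroendocrine markers CHGA, SYP and NCAM1 were under 1 FPKM, although small cell lung cancer is typically neuroendocrine, and the alveolar type 2 markers SFTPA1, SFTPB, SFTPC, SFTPD, NAPSA and LAMP3 were under 1 FPKM in A549. Of 6 epithelial markers, 5 had a mean of at least 1 FPKM in each line. The one under 1 FPKM was CDH1 in BEAS-2B and in H446, and EPCAM in A549. Of the irradiated BEAS-2B libraries, replicate 2 stood apart. Over 10 p53 target genes, the median difference from the BEAS-2B controls on the log2(FPKM + 1) scale was 0.00 in replicate 2, against 0.90 in replicate 1 and 1.15 in replicate 3. The single targets in replicate 2 ranged from -0.19 to 0.62. CDKN1A, GDF15, BBC3, PHLDA3 and FDXR, 5 of the 10, lay above all 3 controls there, and MDM2, FAS, TP53INP1 and ZMAT3 lay below all 3, while in replicates 1 and 3 all 10 targets lay above the controls. Results in BEAS-2B are therefore given with this library and, where a call changes, also without it. In A549 the same median lay between 1.36 and 1.41 in the 3 irradiated libraries, and in H446 between -0.10 and 0.04.

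The levels of the 10 genes without irradiation differed widely between the 3 lines. In bulk RNA, fewer expressing cells and less RNA per cell cannot be told apart. Compared with BEAS-2B, A549 had less mRNA of CASP1, CASP4, PYCARD, GSDMD, IL1B, NLRP1 and NEK7 and more of GSDME, IL18 and CARD8. H446 had more mRNA of CASP1, IL18 and NEK7 than BEAS-2B and less of CASP4, PYCARD, GSDMD, GSDME, NLRP1 and CARD8. The 10 of 10 members called in A549 and the 9 of 10 in H446 (limma, adjusted p under 0.05) stand against 83.8% and 81.1% of all 13071 genes tested. Of these genes 38.3% were higher and 45.4% lower in A549, and 35.2% were higher and 45.9% lower in H446, so that differing between these lines was the rule for any gene. Between the cancer lines 8 of 10 members were called, 6 higher and 2 lower in H446, against 83.2% of all genes (40.5% higher and 42.7% lower).

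The adaptor showed the widest gap. PYCARD, on chromosome 16 (31201485 to 31203450, minus strand, GRCh38), encodes ASC, the protein that bridges sensors of the pyrin type to caspase-1. In the BEAS-2B controls PYCARD was at 31.27, 28.32 and 35.48 FPKM. It was listed at 0 in all 6 A549 libraries, and in the H446 controls it was at 1.25, 0.72 and 0.61 FPKM. The mean in BEAS-2B was 36.8 times that in H446, and A549 lay below both lines without overlap. PYCARD passed the filter on low values through BEAS-2B alone, where it is high, so no p-value is given for it. The baseline counts of members called given above include it. No fold is given for A549, since its group is listed at 0. All 16 widely expressed genes that were checked, among them ACTB and GAPDH, were above 0 in every library.

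CASP1, the protease that matures IL-1β and IL-18, was spread over a 12.2-fold range between the cancer lines. The 3 A549 controls had 2.08, 1.39 and 1.79 FPKM, the BEAS-2B controls 10.20, 9.26 and 9.69 FPKM, and the H446 controls 19.76, 21.40 and 22.90 FPKM. The groups did not overlap, and each of the 3 differences was called (adjusted p at most 3.6e-09). CASP4, the cytosolic receptor of lipopolysaccharide in the non-canonical pathway, followed another order, with control means of 93.0 ± 4.11 FPKM in BEAS-2B, 31.4 ± 1.56 FPKM in A549 and, between them, 55.5 ± 3.29 FPKM for H446 (SD, n = 3 each). CASP4 exceeded CASP1 in every library, by 9.57-fold on average in BEAS-2B controls, 18.5-fold in A549 controls and 2.61-fold in H446 controls.

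CASP1 shares part of its coding sequence with the neighbouring gene CARD16, which encodes a CARD-only protein related to the caspase-1 prodomain. Of the 1952 windows of 50 bases, the read length, in the transcript examined, 121 (6.20%) also occur in CARD16 transcripts, and reads from them can only be divided between both genes by estimation. The closest stretch is a coding exon of CASP1 at chr11:105034208-105034474 (GRCh38, minus strand), which is shown here with the aligned stretch of CARD16, since within this stretch the 3 bases in capitals are all that tells a read of 1 gene from the other.
CASP1: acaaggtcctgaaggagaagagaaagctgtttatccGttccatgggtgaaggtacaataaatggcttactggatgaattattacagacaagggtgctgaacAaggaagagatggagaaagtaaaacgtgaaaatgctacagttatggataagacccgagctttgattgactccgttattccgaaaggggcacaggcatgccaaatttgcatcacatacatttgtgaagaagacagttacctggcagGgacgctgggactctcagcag
CARD16: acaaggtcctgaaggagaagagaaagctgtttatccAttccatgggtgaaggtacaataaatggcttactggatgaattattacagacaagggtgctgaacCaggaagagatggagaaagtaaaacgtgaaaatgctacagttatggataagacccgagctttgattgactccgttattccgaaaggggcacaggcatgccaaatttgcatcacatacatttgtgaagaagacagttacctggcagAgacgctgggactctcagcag
Over these 267 bases the transcripts are 98.9% identical and differ at G37A, A102C and G247A (CASP1 base, position counted from 1 at the 5′ end of the exon, CARD16 base). The longest run without a difference has 144 bases. For the other 9 members, at most 0.345% of such windows occur in another gene.

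Among the gasdermins, GSDMD (chromosome 8, 143553207 to 143563062, plus strand), the pore protein cut by caspases 1 and 4, was at 26.15, 24.79 and 29.60 FPKM in BEAS-2B controls. Both cancer lines lay far below, at 6.32, 6.33 and 7.51 FPKM in A549 and 6.24, 7.05 and 6.67 FPKM in H446. Their means were 4.0 and 4.04 times lower than in BEAS-2B, and the difference between the cancer lines was -0.010 ± 0.083 (log2, SE), which was not called (adjusted p = 0.92). GSDME (chromosome 7, 24698351 to 24758113, minus strand), a gasdermin cut by caspase-3 that can turn apoptosis into lytic death, was distributed otherwise. Its control values were 23.10, 22.33 and 20.92 FPKM in A549, 13.01, 15.35 and 13.12 FPKM in BEAS-2B, and 8.98, 8.50 and 9.11 FPKM in H446, with no overlap between the lines. The ratio of GSDME to GSDMD thus averaged 0.520 ± 0.090 in BEAS-2B controls, 1.34 ± 0.12 in H446 controls and 3.32 ± 0.47 in A549 controls (SD, n = 3). GSDMD exceeded GSDME in all BEAS-2B libraries, irradiated ones included, and GSDME exceeded GSDMD in all 12 libraries of the cancer lines.

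**Figure D1:**
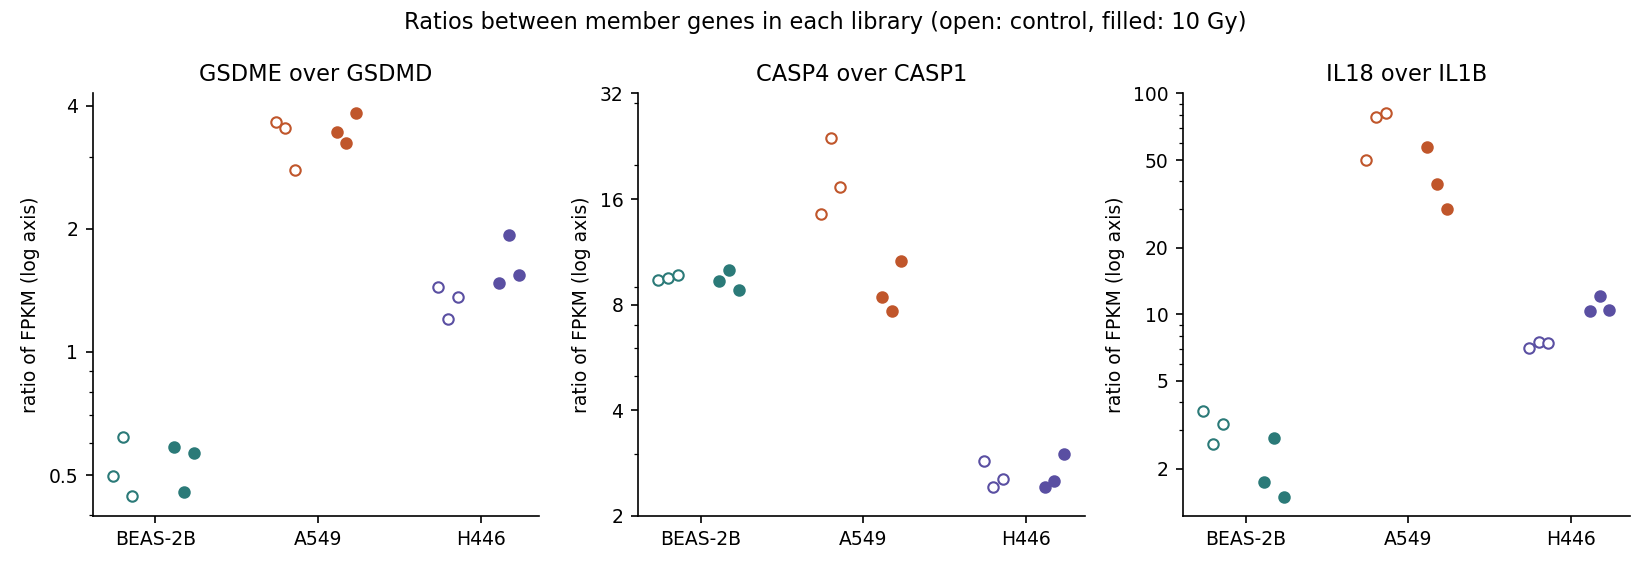
Ratios of FPKM between member genes in each of the 18 libraries, on log axes, with open circles for controls and filled circles for 10 Gy. GSDME over GSDMD lies under 1 in BEAS-2B and between 1.21 and 3.85 in the cancer lines, CASP4 over CASP1 spans 2.41 to 23.8, and IL18 over IL1B spans 1.5 to 81.4.

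Of the cytokines, IL1B (chromosome 2, 112829751 to 112836903, minus strand), which encodes the fever-inducing cytokine IL-1β, was low in A549. Its A549 controls had 1.22, 0.80 and 0.73 FPKM, against 15.07, 17.51 and 17.17 FPKM in BEAS-2B and 14.84, 14.20 and 14.40 FPKM in H446. The BEAS-2B mean was 18.1 times and the H446 mean 15.8 times that of A549. Between BEAS-2B and H446 the groups did not overlap, but the difference of -0.18 ± 0.19 (log2, SE) was not called (adjusted p = 0.37). IL18, which encodes an inducer of interferon gamma and is made constitutively by many epithelia, was abundant in all 3 lines and highest in H446, with 104.66, 106.92 and 106.61 FPKM, against 60.86, 62.58 and 59.41 FPKM in A549 and 55.11, 45.20 and 54.57 FPKM in BEAS-2B. H446 exceeded the other lines by 1.74-fold and 2.05-fold. The smaller step from BEAS-2B to A549 (log2 difference 0.24, adjusted p = 0.0033) moved between 0.15, without BEAS-2B control replicate 2, and 0.39, with quantile normalization. In each line IL18 stood above IL1B, on average by 69.8-fold in A549 controls, 7.33-fold in H446 controls and 3.14-fold in BEAS-2B controls.

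Of the sensors, NLRP1, a sensor of proteases and of ribotoxic stress that is typical of keratinocytes and airway epithelium, was low, at 2.69, 2.4 and 2.51 FPKM in BEAS-2B controls, 1.1, 1.49 and 1.2 FPKM in A549 and 0.99, 1.04 and 0.71 FPKM in H446. Both cancer lines were called lower than BEAS-2B, and the cancer lines were not called different from each other (adjusted p = 0.11). That last difference, -0.24 on the log2 scale, was called when the 9 controls were fitted alone (adjusted p = 0.017), with a pseudocount of 0.1 (adjusted p = 0.049) and without irradiated BEAS-2B replicate 2 (adjusted p = 0.0065). CARD8, a second sensor kept in check by dipeptidyl peptidases, was highest in A549, with 15.70, 16.71 and 17.35 FPKM, between the others in BEAS-2B, with 8.98, 7.73 and 8.87 FPKM, and lowest in H446, with 2.65, 4.0 and 3.52 FPKM. NEK7, a kinase needed for assembly of NLRP3, ran in the opposite order. It had 89.53, 86.67 and 87.52 FPKM in H446 controls, 48.17, 41.78 and 43.67 FPKM in BEAS-2B and 23.34, 20.45 and 22.02 FPKM in A549. Its steps between lines were 1.97-fold and 2.03-fold. NLRP3 itself did not exceed 0.59 FPKM in any library, and 8 of the 15 other sensors in the table, NLRP3, AIM2 and NLRC4 among them, stayed at or under 1 FPKM in all 18 libraries. CASP5, CARD17 and GSDMA also stayed there.

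**Figure D2:**
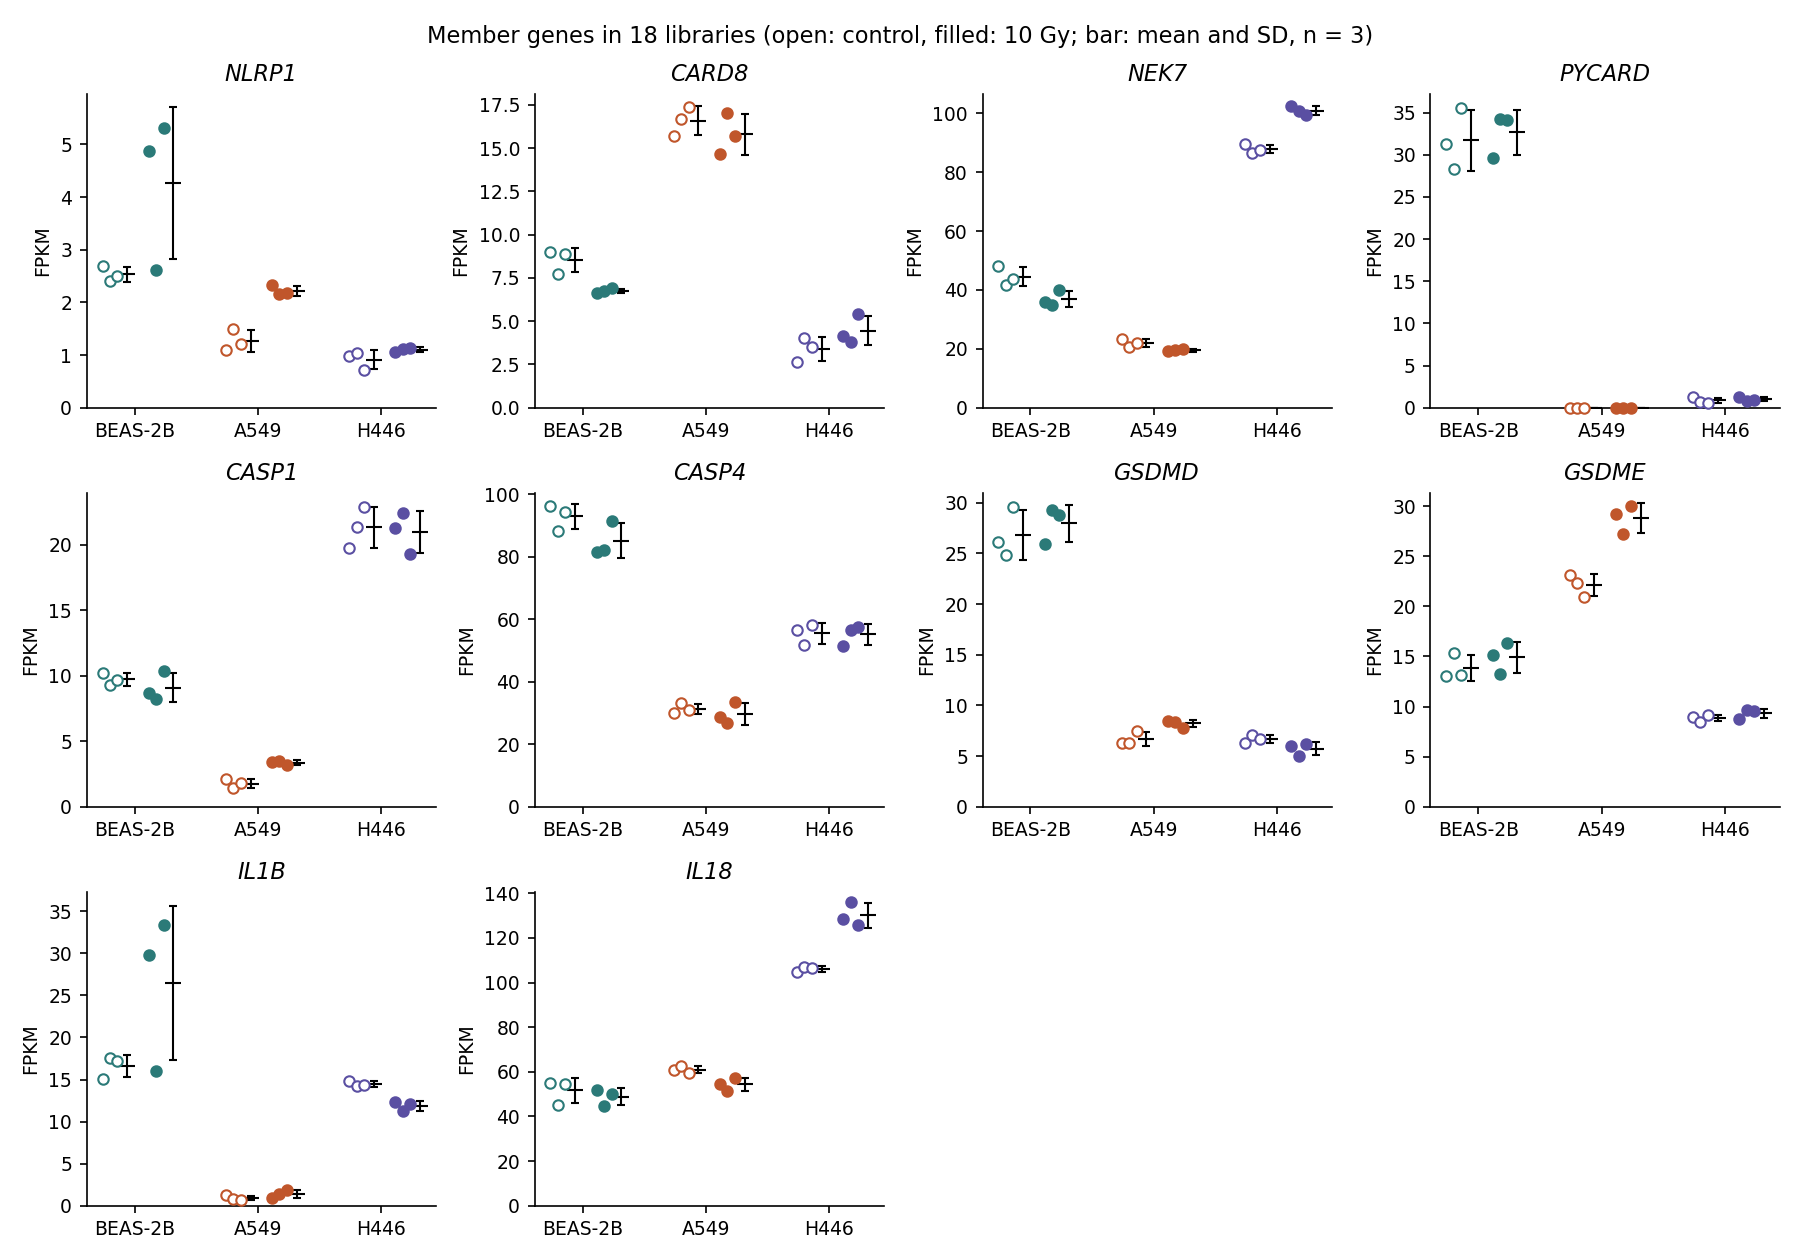
FPKM of the 10 member genes in each library (vertical axes from 0), with open circles for controls, filled circles for 10 Gy, and a bar for the mean and SD of the 3 libraries beside them. PYCARD is seen in BEAS-2B alone at a level above 1.25 FPKM, GSDMD is highest in BEAS-2B, GSDME and CARD8 in A549, and CASP1, IL18 and NEK7 in H446.

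In A549, 10 Gy changed 6 of the 9 members tested. CASP1, NLRP1, GSDME and GSDMD rose and IL18 and NEK7 fell, by at most 1.91-fold in the ratio of means. Because this line responded broadly, with 51.7% of 11993 genes called (25.3% higher and 26.4% lower), 6 of 9 is near the background. The median log2 difference over the 9 members was 0.26, and over all genes tested it was -0.00. None of the 6 reached a log2 difference of 1. Of 7 leukocyte markers, CD68 was also called higher in A549 (0.16, adjusted p = 0.036). CD14 went there from 0.64, 0.55 and 0.09 FPKM to 1.12, 1.02 and 0.93 FPKM and ITGAM from 0.75, 0.82 and 0.64 FPKM to 1.35, 1.49 and 1.3 FPKM, without overlap, and no test is given since both were under 1 FPKM in controls. The sum of the 7 went from between 27.53 and 31.20 FPKM to between 32.14 and 36.44 FPKM with PTPRC, LYZ, SPI1 and CSF1R under 1 FPKM, and their part in these results was not tested.

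CASP1 in A549 went from 2.08, 1.39 and 1.79 FPKM to 3.4, 3.5 and 3.15 FPKM. All irradiated libraries lay above all controls, and the log2 difference was 0.67 ± 0.09 (SE, adjusted p = 1.1e-04). CARD16, the paralog that shares reads with it, went from 0.49, 1.12 and 0.24 FPKM to 1.30, 1.28 and 1.23 FPKM. It reached the filter on low values through its irradiated libraries, so no test of it is given. CASP4 was not called (29.7 ± 3.54 FPKM irradiated against 31.4 ± 1.56 in controls, SD, n = 3, adjusted p = 0.34), and the ratio of CASP4 to CASP1 in A549 lay between 14.5 and 23.8 in controls and between 7.65 and 10.7 after 10 Gy. Without irradiated replicate 3, CASP4 was called lower (-0.17, adjusted p = 0.021).

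NLRP1 in A549 went from 1.1, 1.49 and 1.2 FPKM to 2.33, 2.15 and 2.17 FPKM, a log2 difference of 0.51 ± 0.09 (adjusted p = 4.1e-04), or 0.77 with a pseudocount of 0.1, since this gene is low. Of the gasdermins, GSDME went from 23.10, 22.33 and 20.92 FPKM to 29.26, 27.21 and 30.03 FPKM (0.37 ± 0.05, adjusted p = 9.7e-05). GSDMD went from 6.32, 6.33 and 7.51 FPKM to 8.49, 8.4 and 7.81 FPKM (0.26 ± 0.07, adjusted p = 0.0081). For both gasdermins the irradiated libraries lay above the controls without overlap. The groups did not overlap for 6 of the 9 members, and for 58.5% of all genes tested in A549. Their ratio overlapped between the groups, with 2.79 to 3.66 in controls and 3.24 to 3.85 after 10 Gy.

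IL18 in A549 went from 60.86, 62.58 and 59.41 FPKM to 54.31, 51.56 and 57.07 FPKM (-0.16 ± 0.04, adjusted p = 0.0076), which was no longer called when all 18 libraries shared the spread (adjusted p = 0.058). NEK7 in A549 went from 23.34, 20.45 and 22.02 FPKM to 19.08, 19.43 and 19.82 FPKM (-0.16 ± 0.05, adjusted p = 0.019). This call was lost with quantile normalization (adjusted p = 0.052), without control replicate 1 (adjusted p = 0.098) and without irradiated replicate 1 (adjusted p = 0.053). IL1B was near 1 FPKM, with 0.95, 1.33 and 1.90 FPKM after 10 Gy, and overlapped its controls (0.31 ± 0.14). It reached the filter on low values mostly through its irradiated libraries, so no test of it is given. The count of members tested in A549 given above includes it. Without irradiated replicate 1, the lowest irradiated library for IL1B, the difference was 0.45. CARD8 had 15.8 ± 1.19 FPKM irradiated and 16.6 ± 0.83 in controls and was not called (adjusted p = 0.36).

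In H446, 3 of the 9 members tested were called, against 38.4% of 11479 genes (14.8% higher and 23.6% lower). IL18 and NEK7, the members with the highest mRNA levels in the controls of this line, rose and IL1B fell. The median over the 9 members was 0.06 on the log2 scale, against -0.03 over all genes tested.

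IL18 in H446 went from 104.66, 106.92 and 106.61 FPKM to 128.36, 136.22 and 125.71 FPKM, with all irradiated libraries above the controls (0.29 ± 0.04, adjusted p = 2.8e-04). NEK7 went from 89.53, 86.67 and 87.52 FPKM to 102.54, 100.68 and 99.45 FPKM (0.20 ± 0.03, adjusted p = 0.0013). With a trend on GC content removed from each library the NEK7 difference was 0.11 (adjusted p = 0.036). IL1B went from 14.84, 14.20 and 14.40 FPKM to 12.38, 11.24 and 12.05 FPKM (-0.26 ± 0.05, adjusted p = 0.0025), which was not called when all 18 libraries shared the spread (adjusted p = 0.29). The ratio of IL18 to IL1B in H446 accordingly lay between 7.05 and 7.53 in controls and between 10.4 and 12.1 after 10 Gy.

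The remaining members did not pass the test in H446. CASP1 had 21.28, 22.45 and 19.27 FPKM after 10 Gy, overlapping its controls (-0.023 ± 0.065, adjusted p = 0.797), and CASP4 had 51.38, 56.51 and 57.60 FPKM (-0.0092 ± 0.054, adjusted p = 0.91). For GSDMD the irradiated libraries, at 5.97, 5.01 and 6.19 FPKM, all lay below the controls (-0.19 ± 0.08, adjusted p = 0.075). With the GC trend removed the GSDMD difference was 0.028. The groups did not overlap for 5 of the 9 members, and for 50.3% of all genes tested in H446. GSDME had 9.32 ± 0.47 FPKM irradiated and 8.86 ± 0.32 in controls (SD, n = 3, adjusted p = 0.38). CARD8 had 4.16, 3.81 and 5.39 FPKM and overlapped its controls (0.31 ± 0.13, adjusted p = 0.074), and it was called with quantile normalization (adjusted p = 0.035), when all 18 libraries shared the spread (adjusted p = 0.033), without control replicate 2 (adjusted p = 0.040) and without irradiated replicate 2 (adjusted p = 0.044). Without control replicate 1 the CARD8 difference was 0.19 and without irradiated replicate 3 it was also 0.19 (adjusted p = 0.25 each). NLRP1 had 1.05, 1.12 and 1.14 FPKM, just above the highest control (0.14 ± 0.09, adjusted p = 0.25). Its difference was 0.062 without control replicate 3, 0.24 with the GC trend removed and 0.26 with a pseudocount of 0.1, and none of these was called. PYCARD, with 1.23, 0.81 and 0.96 FPKM, was under the filter on low values and was not called by an exact permutation test (p = 0.60, two-sided, n = 3 libraries a group, where 0.10 is the smallest p that 3 against 3 libraries can give). PYCARD in A549 stayed listed at 0.

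**Figure D3:**
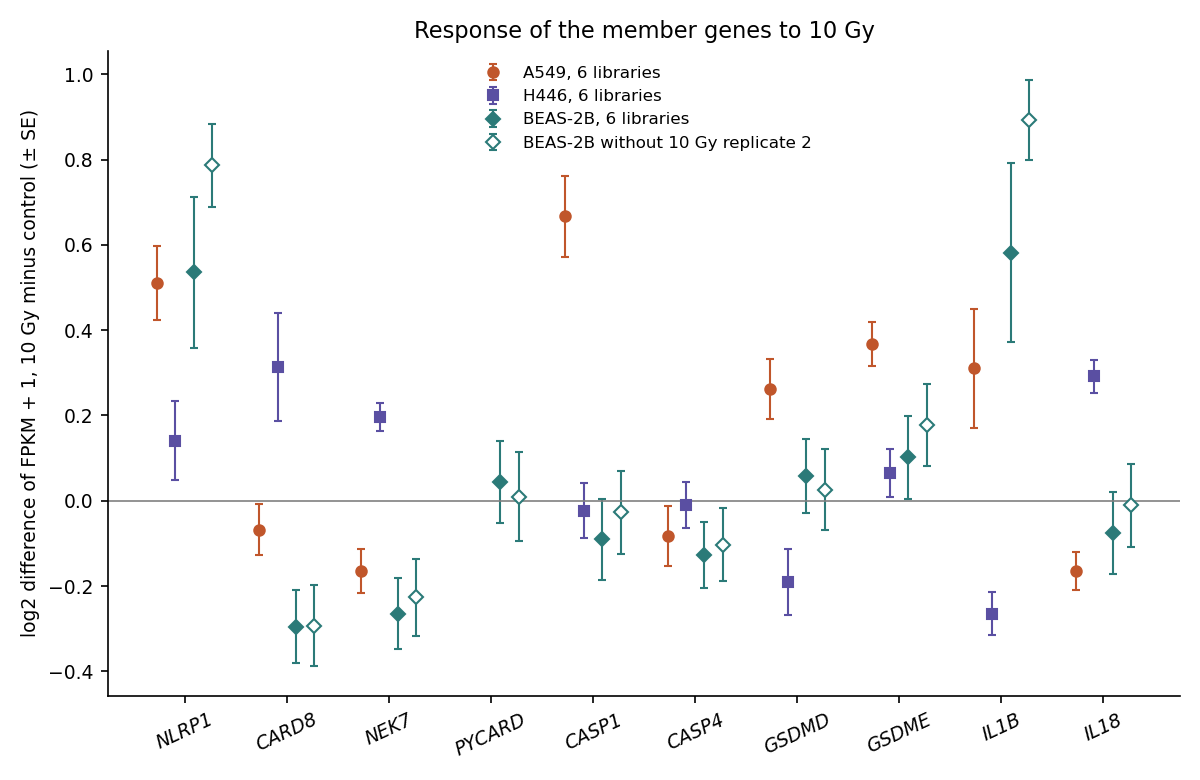
Difference between 10 Gy and control for each member on the log2(FPKM + 1) scale with its SE, in A549 (circles), H446 (squares) and BEAS-2B (diamonds, open without irradiated replicate 2). CASP1 is higher in A549 alone (0.67), IL18 and NEK7 are higher in H446 (0.29 and 0.20) and lower in A549 (-0.16 each), and NLRP1 and IL1B in BEAS-2B move to 0.79 and 0.89 without replicate 2. PYCARD is drawn for BEAS-2B only, since it was under the filter on low values in the cancer lines.

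In BEAS-2B none of the 10 members was called with limma, and none of the 11734 genes tested was (0%), although 12.3% of them had an unadjusted p under 0.05. IL1B, NLRP1, CARD8 and NEK7 were among these. Leaving out irradiated replicate 2, in which the median of the p53 targets was 0.00, 2 of 10 members were called, IL1B and NLRP1, against 1.99% of 11680 genes.

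IL1B in BEAS-2B had 15.07, 17.51 and 17.17 FPKM in controls and 29.84, 16.05 and 33.42 FPKM after 10 Gy, and NLRP1 had 2.69, 2.4 and 2.51 FPKM and then 4.87, 2.62 and 5.32 FPKM. Replicates 1 and 3 lay far above the controls for both genes and replicate 2 lay within them. With replicate 2 the log2 differences were 0.58 ± 0.21 (adjusted p = 0.31) for IL1B and 0.54 ± 0.18 (adjusted p = 0.29) for NLRP1. Without it they were 0.89 ± 0.09 (adjusted p = 6.1e-04) and 0.79 ± 0.10 (adjusted p = 0.0018). Replicate 2 was left out for its low p53 response, a choice that favours a call in the irradiated libraries that remain. Without irradiated replicate 3 instead, the IL1B difference was 0.39 (adjusted p = 0.22), and 0 members and 0% of all genes were called. Whether replicate 2 received its dose was not tested.

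CARD8 and NEK7 behaved differently in that library. CARD8 had 8.98, 7.73 and 8.87 FPKM in controls and 6.64, 6.72 and 6.89 FPKM after 10 Gy, and NEK7 had 48.17, 41.78 and 43.67 FPKM and then 35.73, 34.89 and 40.13 FPKM. All irradiated libraries, replicate 2 included, lay below all controls, as for 8.87% of all genes tested. Neither was called (-0.30 ± 0.09, adjusted p = 0.25, and -0.26 ± 0.08, adjusted p = 0.28). Without replicate 2 the values were -0.29 (adjusted p = 0.21) and -0.23 (adjusted p = 0.34), and with the GC trend removed they were -0.22 and -0.13. When all 18 libraries shared the spread, NEK7 (adjusted p = 0.013) and NLRP1 (adjusted p = 0.027) were called. The other 6 members overlapped their controls, with log2 differences between -0.13 (CASP4) and 0.10 (GSDME), and PYCARD stayed at 29.61, 34.21 and 34.11 FPKM.

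**Figure D4:**
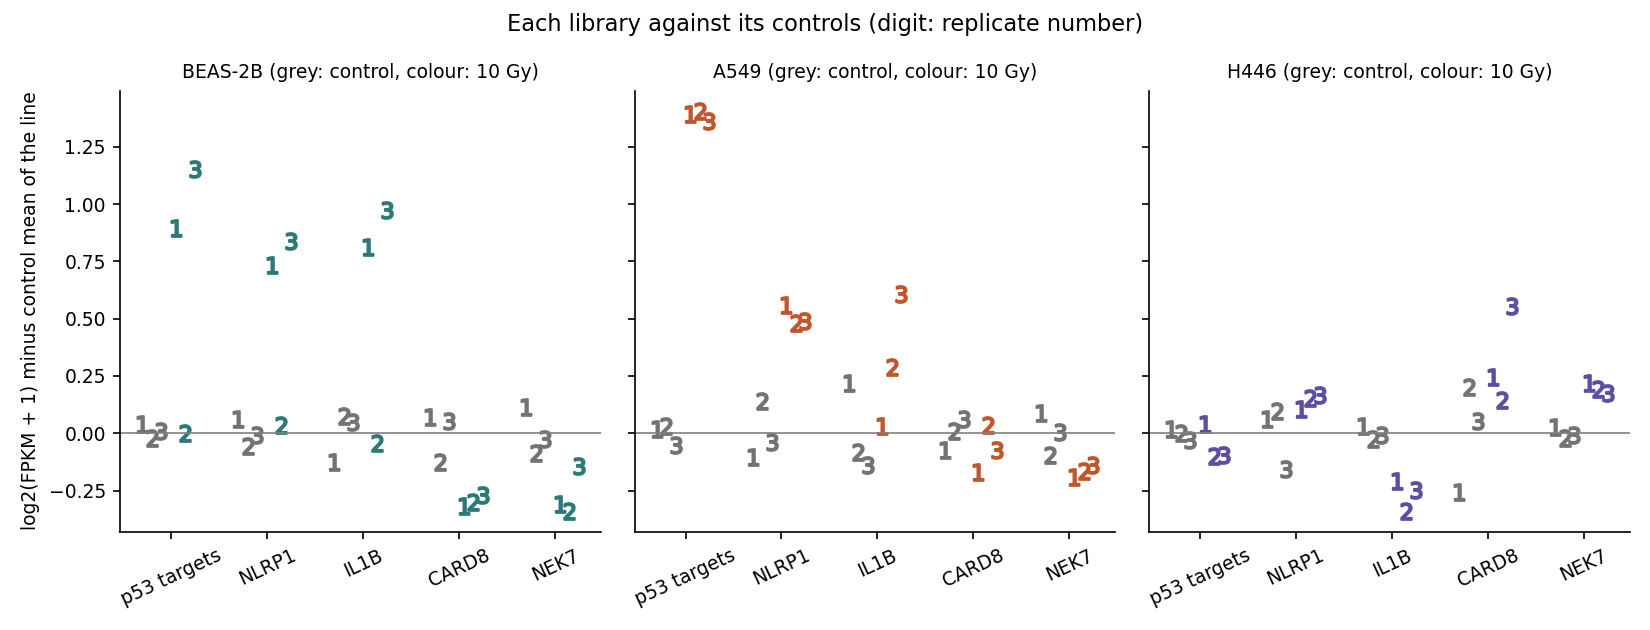
Difference of each library from the control mean of its line on the log2(FPKM + 1) scale, for the median of 10 p53 targets and for NLRP1, IL1B, CARD8 and NEK7, with digits for the replicate numbers (grey for controls, coloured for 10 Gy). In BEAS-2B, irradiated replicate 2 sits at 0.00 for the median of the p53 targets, 0.04 for NLRP1 and -0.04 for IL1B, but at -0.30 for CARD8 and -0.34 for NEK7 with the other irradiated libraries.

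The responses were then compared between lines in 1 fit over all 18 libraries, in which differences of responses were tested directly. Between the cancer lines, 5 of 10 members responded differently, 3 higher and 2 lower in A549 (34.6% of 13071 genes, 19.3% higher and 15.3% lower): the response of A549 exceeded that of H446 for CASP1 (by 0.69 ± 0.13, adjusted p = 5.7e-04), GSDMD (0.45 ± 0.12, adjusted p = 0.0061) and GSDME (0.30 ± 0.10, adjusted p = 0.031), and lay below it for IL18 (-0.46 ± 0.10, adjusted p = 0.0015) and NEK7 (-0.36 ± 0.08, adjusted p = 0.0028). IL18 and NEK7 were thus called in opposite directions within A549 and H446, and their responses differed. The GSDMD difference was not called with the GC trend removed (0.27, adjusted p = 0.13), nor was that of GSDME after scaling to equal totals (0.28, adjusted p = 0.067). The GSDME call was also lost without A549 control replicate 3, irradiated A549 replicate 1 or 3, H446 control replicate 1 or 3, or irradiated H446 replicate 1 (adjusted p between 0.061 and 0.081). Without irradiated BEAS-2B replicate 2, which widens the shared spread, the differences of IL1B (0.58, adjusted p = 0.0093) and NLRP1 (0.37, adjusted p = 0.011) were called as well, which makes 7 of 10 members against 37.9% of all genes.

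Against A549, the response of BEAS-2B differed for 1 member, CASP1 (-0.76 ± 0.13, adjusted p = 3.3e-04), where 30.6% of genes were called. CASP1 in BEAS-2B had 8.71, 8.21 and 10.38 FPKM after 10 Gy, around its controls. Without replicate 2 the response of IL1B was also called larger in BEAS-2B than in A549 (0.58, adjusted p = 0.016), 2 of 10 members against 30.0% of all genes. This IL1B difference was 0.069 with a pseudocount of 0.1 and all libraries, and 0.076 without irradiated BEAS-2B replicate 3 (adjusted p = 0.90 and 0.84). IL1B is near 1 FPKM in A549, where the log2(FPKM + 1) scale understates its fold. For NLRP1, which was called in A549, the responses of BEAS-2B and A549 differed by 0.026 ± 0.20 with replicate 2 and by 0.28 ± 0.11 without it, neither of which was called (adjusted p = 0.94 and 0.076). Against H446, the response of BEAS-2B differed for 4 members (22.7% of genes). It was higher for IL1B (0.85 ± 0.26, adjusted p = 0.028) and lower for IL18 (-0.37 ± 0.10, adjusted p = 0.013), CARD8 (-0.61 ± 0.15, adjusted p = 0.0089) and NEK7 (-0.46 ± 0.08, adjusted p = 0.0014). The IL1B call was lost without BEAS-2B control replicate 1, irradiated BEAS-2B replicate 1, H446 control replicate 1, or irradiated H446 replicate 2 or 3 (adjusted p between 0.053 and 0.074). Without replicate 2 of irradiated BEAS-2B the IL1B difference was 1.16 (adjusted p = 2.1e-04) and that of NLRP1 was called too (0.65, adjusted p = 9.5e-04), 5 of 10 members against 18.5% of all genes. With the GC trend removed IL18 was not called (-0.22, adjusted p = 0.095) and NEK7 stood at -0.26 (adjusted p = 0.010).

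The other genes of the pathway were read from lists of sensors, caspases, gasdermins, regulators and IL-1 family genes. Of 7 further sensors tested in A549, 3 rose and none fell, where 25.3% of all genes rose and 26.4% fell. They were NLRP2, from 12.32, 12.82 and 12.12 FPKM to 15.54, 13.91 and 14.96 FPKM (0.23, adjusted p = 0.0030), the mitochondrial NLRX1 (0.22, adjusted p = 0.0089), and MEFV, the pyrin gene, from 1.28 ± 0.15 to 2.13 ± 0.25 FPKM (0.45, adjusted p = 0.0012). Of 5 tested in H446, where 14.8% of all genes rose and 23.6% fell, none rose and 3 fell, NLRX1 (-0.29, adjusted p = 0.031), the flagellin receptor NAIP (-0.29, adjusted p = 0.0071) and the peptidoglycan receptor NOD1 (-0.22, adjusted p = 0.028). NLRP2 was listed at 0 in all H446 libraries. Of the sensors measured above 1 FPKM in every library of both lines, the response of A549 exceeded that of H446 for NLRX1 (by 0.51, adjusted p = 0.0023) and NAIP (by 0.46, adjusted p = 0.015).

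Among the other caspases and CARD proteins, CASP8, the initiator of death receptor signalling, rose in A549 (0.14, adjusted p = 0.016) and was not called in H446. Of 3 other genes of membrane rupture tested in each cancer line, 2 rose in A549, where 25.3% of all genes rose, and 1 fell in H446, where 23.6% fell. GSDMB, a gasdermin cut by granzyme A, went from 4.95, 5.90 and 5.44 FPKM to 6.62, 7.15 and 9.07 FPKM in A549 (0.41, adjusted p = 0.0034). NINJ1, which tears the membrane at the end of lytic death, went from 42.57, 46.66 and 39.92 FPKM to 54.36, 56.07 and 54.44 FPKM in A549 (0.35, adjusted p = 1.5e-04). In H446 NINJ1 fell from 28.13, 26.50 and 25.57 FPKM to 23.69, 22.90 and 21.21 FPKM (-0.23, adjusted p = 0.0058), and the responses of the cancer lines differed (by 0.58, adjusted p = 4.3e-04). In BEAS-2B it had 24.73, 30.41 and 28.46 FPKM in controls and 40.15, 34.40 and 39.73 FPKM after 10 Gy, without overlap. It was not called with replicate 2 (adjusted p = 0.24) and was called without it (0.51, adjusted p = 0.021).

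Of 10 regulators of sensors, 2 rose and 2 fell in A549, and 2 rose in H446, against 51.7% and 38.4% called in either direction among all genes. The guanylate-binding proteins GBP1 and GBP2, interferon-induced GTPases that coat bacteria and aid CASP4, rose together in H446. GBP1 went from 15.15, 15.25 and 15.29 FPKM to 24.40, 24.26 and 26.24 FPKM (0.68, adjusted p = 2.5e-06), and GBP2 from 3.72, 3.8 and 3.83 FPKM to 6.64, 6.87 and 6.47 FPKM (0.68, adjusted p = 1.6e-05). Both differences were larger than that of any member in this line. In A549, GBP2 rose (0.31, adjusted p = 0.0023) and GBP1 fell (-0.20, adjusted p = 0.033), and TXN, thioredoxin, rose (0.20, adjusted p = 0.0049) while MAP3K20, the ribotoxic stress kinase that acts on NLRP1, fell (-0.14, adjusted p = 0.011).

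Of 9 IL-1 family genes tested in A549, 3 rose and 3 fell, near the share of 51.7% called among all genes. IL1A, the alarmin ligand of the same receptor as IL-1β, fell most, from 11.14, 11.57 and 11.30 FPKM to 4.58, 5.54 and 6.12 FPKM (-0.95 ± 0.08, adjusted p = 1.6e-06), and its excess over IL1B in A549 narrowed from between 9.13-fold and 15.5-fold in controls to between 3.22-fold and 4.82-fold after 10 Gy. IL1R1, the signalling receptor, went from 8.99, 8.66 and 8.22 FPKM to 11.42, 12.82 and 11.13 FPKM (0.41, adjusted p = 1.9e-04), and was under 1 FPKM in every BEAS-2B and H446 library. The adaptor MYD88 (0.50, adjusted p = 6.3e-05) and the decoy IL18BP (0.20, adjusted p = 0.046) rose in A549, and the kinases IRAK1 (-0.24, adjusted p = 1.8e-04) and IRAK2 (-0.29, adjusted p = 7.3e-05) fell. In H446, MYD88 rose (0.16, adjusted p = 0.030) and IRAK1 (-0.13, adjusted p = 0.042) and IRAK2 (-0.21, adjusted p = 0.0075) fell, 3 of 10 tested against 38.4% of all genes, and IL1A was not called. In BEAS-2B no gene of these 5 lists was called, where 0% of all genes were. Without irradiated replicate 2, where 1.99% of all genes were called, 3 of their genes were called higher, namely NINJ1, IL1A (0.68, adjusted p = 0.048) and P2RX7, the ATP-gated channel (0.47, adjusted p = 0.049), the last named after its values were seen.

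**Figure D5:**
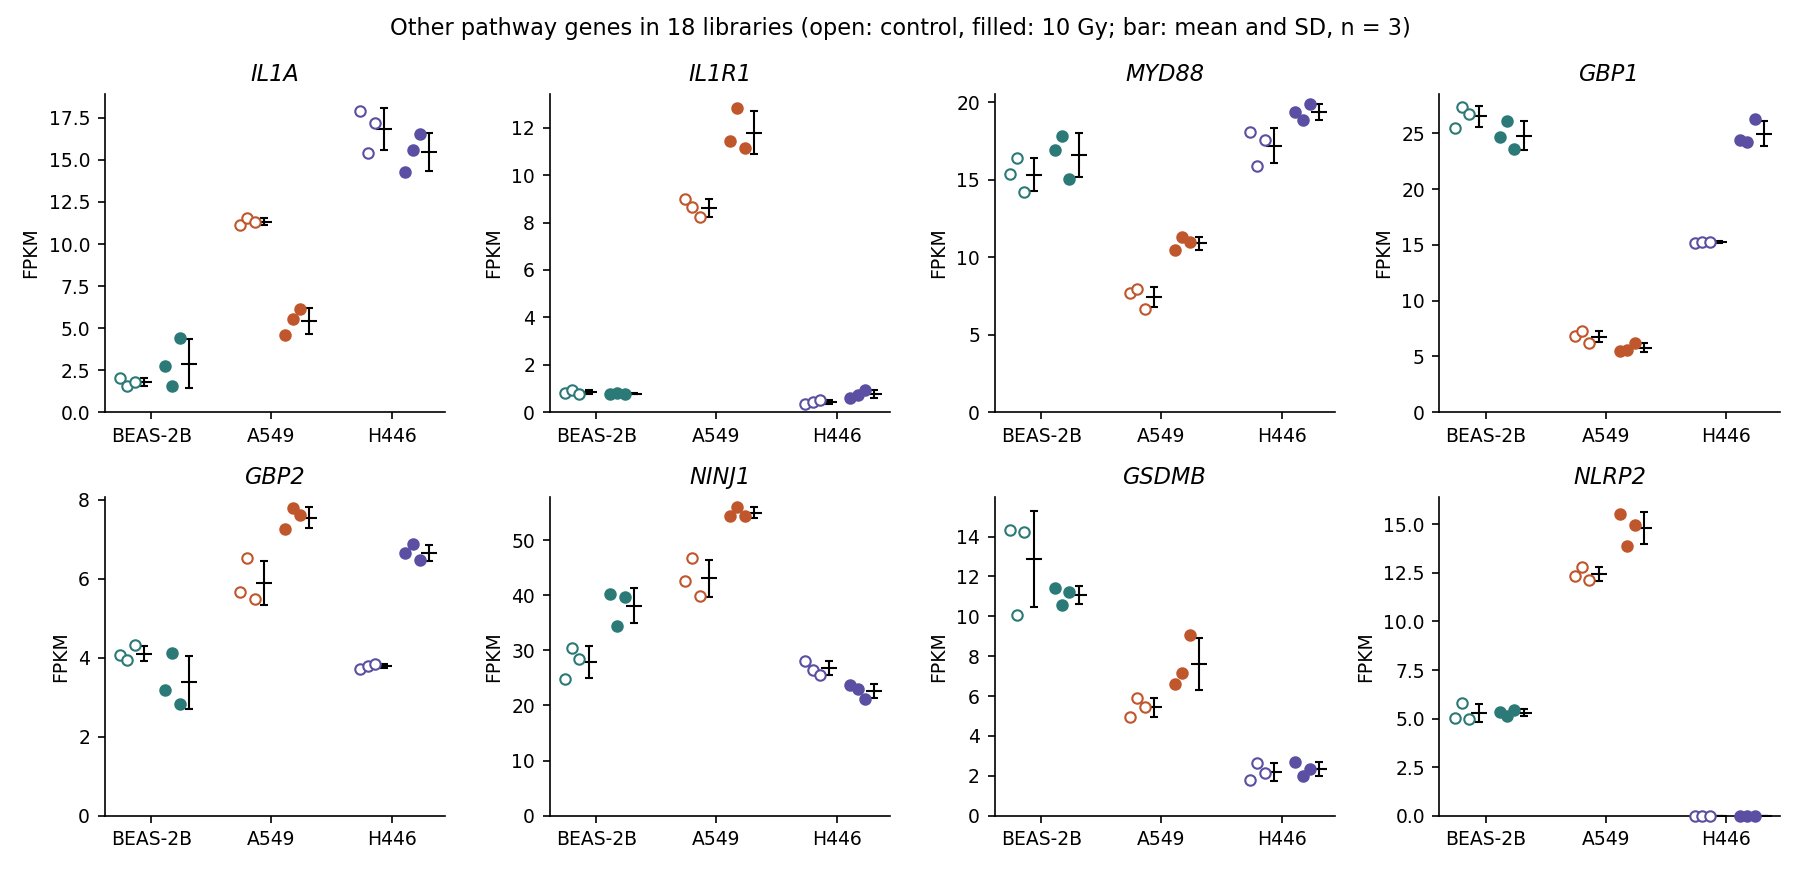
FPKM of 8 other pathway genes in each library (vertical axes from 0), drawn as for the members. IL1A falls and IL1R1, NINJ1 and NLRP2 rise in A549, GBP1 and GBP2 rise in H446, and IL1R1 stays under 1 FPKM outside A549.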

How the data were processed

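RNA-seq values of 18 libraries (3 control and 3 irradiated libraries of BEAS-2B, A549 and H446) were re-analysed, with groups taken from the sample titles. The authors sequenced poly(A) libraries as single-end reads of 50 bases and deposited 1 table of values, taken to be FPKM. The unit was inferred from the values, since no source names it, and on a TPM scale each library would differ by a constant factor only. The submitters' processing notes name HISAT2 2.0.4, Bowtie2 2.2.5, RSEM 1.2.12 and hg38, without their order. Of 18475 Entrez numbers, 18181 were matched to RefSeq names. Coordinates and transcripts are from GENCODE 29 (GRCh38).

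Values were tested with limma 3.58.1 in R 4.3.3 (trended prior) on log2(FPKM + 1), Benjamini-Hochberg adjusted over all genes tested and called under 0.05. Responses were fitted per line, over genes of at least 1 FPKM in 3 of 6 libraries. Baseline contrasts and differences of responses used 1 fit of all 18 libraries. Differences understate the fold of low genes. Members under the filter were compared by an exact permutation test. Raw reads per library were not used here, so exact depth is unknown and no counting interval is given. Replicates shared at most 3.22% of values, so all were counted. The steps were tested on simulated data.

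The 10 members and the gene lists were chosen with earlier results of these data known. Besides the members, the genes named are those called in A549 or H446 with a mean of at least 1 FPKM, at most 6 per list by size, and some genes of these lists are not reported here. Figures were drawn with matplotlib 3.10.9.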

Additional observations from a re-analysis of the deposited data

Results flagged for a closer look

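Responses to 10 Gy that differed between lines in a test of the difference itself were marked, 10 in all, each on the log2(FPKM + 1) scale. Between A549 and H446 the response of A549 minus that of H446 was 0.69 for CASP1, 0.45 for GSDMD, 0.30 for GSDME, -0.46 for IL18 and -0.36 for NEK7. The response of BEAS-2B minus that of A549 was -0.76 for CASP1, and -0.69 without irradiated BEAS-2B replicate 2. The response of BEAS-2B minus that of H446 was 0.85 for IL1B, -0.37 for IL18, -0.61 for CARD8 and -0.46 for NEK7, and without that replicate 1.16, -0.30, -0.61 and -0.42. These comparisons share libraries, since the responses of each line enter 2 of them. Groups of 3 libraries are too small for the check of single libraries far from the rest.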

How the results depend on the processing

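All responses tested were followed under the alternatives, and of the other differences only those called in the main fit or in an alternative. Of these 73 differences of single members, 46 were called, and none of those 46 changed sign. Among all genes, 81.1% to 83.8% were called in the baseline comparisons, 0% to 51.7% in the responses and 22.7% to 34.6% in the differences of responses. Requiring an absolute log2 difference of at least 1 left 0 members called in the A549 and H446 responses and in all 3 differences of responses, where at most 1.16% of all genes were called, and 5 in each of the 3 baseline comparisons, where 23.8% to 27.8% were. In BEAS-2B, 2 members were called with the replicate block (3.74% of all genes) and 2 when all 18 libraries were in 1 fit (7.01% of all genes), 0 members and 0% of all genes were called with GC removal and the replicate block together, and leaving out 1 library gave 0 to 2. For the difference between the BEAS-2B and A549 responses, quantile normalization, GC removal, and GC removal with the replicate block each gave 2 members (31.0%, 32.3% and 31.7% of all genes), and leaving out 1 library gave 1 to 2. Equal replicate numbers were not treated as pairs, because same-numbered libraries did not deviate together in every line (correlations -0.13, 0.32 and 0.31 in BEAS-2B, 0.01, -0.05 and -0.10 in A549, and 0.19, 0.01 and 0.08 in H446). With the replicate block CARD8 was called in H446 (0.31, adjusted p = 0.049), IL1B and NLRP1 in BEAS-2B (adjusted p = 0.00881 and 0.010) and CARD8 between A549 and H446 (adjusted p = 0.046).

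Signs turned only for differences that were not called. In H446 these were CASP1 with quantile normalization (0.0087) and in a range of -0.075 to 0.035 over left-out libraries, CASP4 with equal totals (0.011) and from -0.057 to 0.040 over left-out libraries, and GSDMD after GC removal (0.028, with or without the replicate block). In BEAS-2B these were PYCARD (-0.077), GSDMD (-0.081) and IL18 (0.016) after GC removal, with or without the replicate block, and PYCARD from -0.031 to 0.13 over left-out libraries. NLRP1 between the H446 and A549 controls was 0.013 with quantile normalization. The IL1B difference between the BEAS-2B and H446 responses lost its call with no filter (adjusted p = 0.060), with a pseudocount of 0.1 (adjusted p = 0.065) and without any of 5 libraries. That of GSDME between A549 and H446 lost it without any of 6 libraries. CARD8 between A549 and H446 (-0.38, adjusted p = 0.057) was called with quantile normalization (adjusted p = 0.048) and with equal totals (adjusted p = 0.0495). The CARD8 difference was also called without irradiated A549 replicate 2, H446 control replicate 2 or irradiated H446 replicate 2. GSDME between BEAS-2B and A549 (-0.27, adjusted p = 0.061) was called with quantile normalization (adjusted p = 0.018) and GC removal (adjusted p = 0.045). That call also came without irradiated BEAS-2B replicate 3 or irradiated A549 replicate 2. The cause was not tested.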

Other observations

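Outside the members, the baseline of the pathway also differed by line. Against BEAS-2B controls, of 11 regulators of sensors tested 2 were higher and 5 lower in A549, and 2 were higher and 7 lower in H446, where 38.3% and 35.2% of all genes were higher and 45.4% and 45.9% lower. Of 11 IL-1 family genes, 6 were higher and 2 lower in A549, and 5 were higher and 4 lower in H446, with IL1A higher in both.

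The genes whose profile over the 18 libraries lay closest to a member, by the root mean square difference of centred log2(FPKM + 1) values, were TMEM38A and APOL3 for CASP1 (0.18 and 0.20, where the spread of CASP1 itself was 1.12), PSG5 and FBLN2 for PYCARD (0.22 and 0.28, own spread 2.2), PDGFC and UXS1 for GSDME (0.11 each, own spread 0.58), GINS1 and DMRTA2 for GSDMD (0.14 and 0.15, own spread 0.89), TCEA3 and LYPD6 for IL1B (0.29 and 0.33, own spread 1.48), COL3A1 and CD163L1 for IL18 (0.11 and 0.12, own spread 0.55), and NIPBL and B2M for NEK7 (0.12 each, own spread 0.88). For CASP4 they were ZNF589 and ZNF845, for NLRP1 SMTN and HSD17B7, and for CARD8 TMEM150C and APH1B. These likenesses rest on 18 libraries of 3 lines and mostly follow the differences between lines.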
